A study of Bos taurus with 3 samples.

Results

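Interferons are secreted signals that switch on a shared set of genes in the cells that bind them. Type I interferons act through IFNAR1 and IFNAR2 and interferon gamma through IFNGR1 and IFNGR2, and JAK kinases, STAT factors and IRF factors carry both signals to the nucleus. Among the genes that answer are antiviral effectors and the parts of the MHC class I pathway, in which the immunoproteasome cuts proteins, a peptide transporter carries the pieces into the endoplasmic reticulum, and a heavy chain with beta-2-microglobulin shows them at the cell surface. The interferon response and MHC class I were followed here through 9 genes, taken by symbol from the 27270 genes of the count matrices. MHC class I presentation was represented by B2M (ENSBTAG00000012330), the light chain of the complex, TAP1 (ENSBTAG00000008953), a subunit of the peptide transporter, and PSMB8 (ENSBTAG00000003039) and PSMB9 (ENSBTAG00000008954), catalytic subunits of the immunoproteasome. The transcription factors were IRF1 (ENSBTAG00000031231) and IRF7 (ENSBTAG00000047680). The antiviral effectors were ISG15 (ENSBTAG00000014707), a ubiquitin-like protein, MX1 (ENSBTAG00000030913), a dynamin-like GTPase, and IFI27 (ENSBTAG00000003152), a small membrane protein.

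The tissue was the ventral rumen sac of 3 newborn Holstein calves, taken 1 day after birth, stripped of its outer muscle and dissociated with enzymes, with 1 droplet library made per calf. They were of similar body weight and no treatment is named for them, the study's adult cattle are not analysed here, and dead cells were removed only from suspensions of low viability. The libraries held 7529 to 12043 barcodes and 82263092 to 106145091 UMIs (unique molecular identifiers, each counting 1 captured RNA molecule). In calves 1, 2 and 3, 4935, 10737 and 10543 barcodes had 500 to 4000 detected genes, and 4695, 9746 and 9601 cells were kept after the other filters. Cells of the kept libraries shared 51 barcode sequences.

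The kept cells were divided into 4 classes by clusters of the cells, which were made without the 9 genes and without the wider pathway list. Calves 1, 2 and 3 gave 4590, 8808 and 7849 epithelial cells, 73, 531 and 656 endothelial cells, 22, 331 and 395 fibroblasts (mural and smooth muscle cells included), and 10, 75 and 701 immune cells. The classes carried their defining markers. EPCAM had a UMI in 78.7%, 64.0% and 59.3% of the epithelial cells of the 3 calves, PECAM1 in 83.6%, 85.7% and 85.8% of endothelial cells, COL3A1 in 90.9%, 95.2% and 87.8% of fibroblasts and PTPRC in 90.0%, 65.3% and 76.6% of immune cells. The fibroblast and immune values of calf 1 rest on few cells, and its fibroblasts held 98.8 UMIs per 10000 of the 9 epithelial markers summed, against 18.8 and 11.3 in calves 2 and 3. A level is the UMI count of a gene per 10000 UMIs, after the cells of 1 class in 1 calf had been summed, and a mean is over the calves, with its SD (n = 3). The libraries read only the 3′ ends of transcripts, so levels of different genes were not compared with each other.

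Endothelial and immune cells held the highest levels of the MHC class I genes, and epithelial cells the lowest in most calves. B2M was found in endothelial cells at 48.0, 110 and 177 UMIs per 10000 in calves 1, 2 and 3, with a mean of 112 ± 64.6. In immune cells it was found at 62.2, 68.3 and 120, with a mean of 83.6 ± 31.9. In epithelial cells it was found at 1.65, 3.37 and 17.4, with a mean of 7.46 ± 8.62. Every endothelial and immune value lay above every epithelial value, and calf 3 was highest and calf 1 lowest in all 4 classes. The fibroblast levels of B2M were 1.87, 8.36 and 24.8, which lay above the epithelial level of the same calf and overlapped the epithelial range. That of calf 1 rests on 15 UMIs in 22 cells and lay close to its epithelial level. A median epithelial cell held 1, 2 and 13 UMIs of B2M in calves 1, 2 and 3, and a median endothelial cell 17, 40 and 79.

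**Figure D1:**
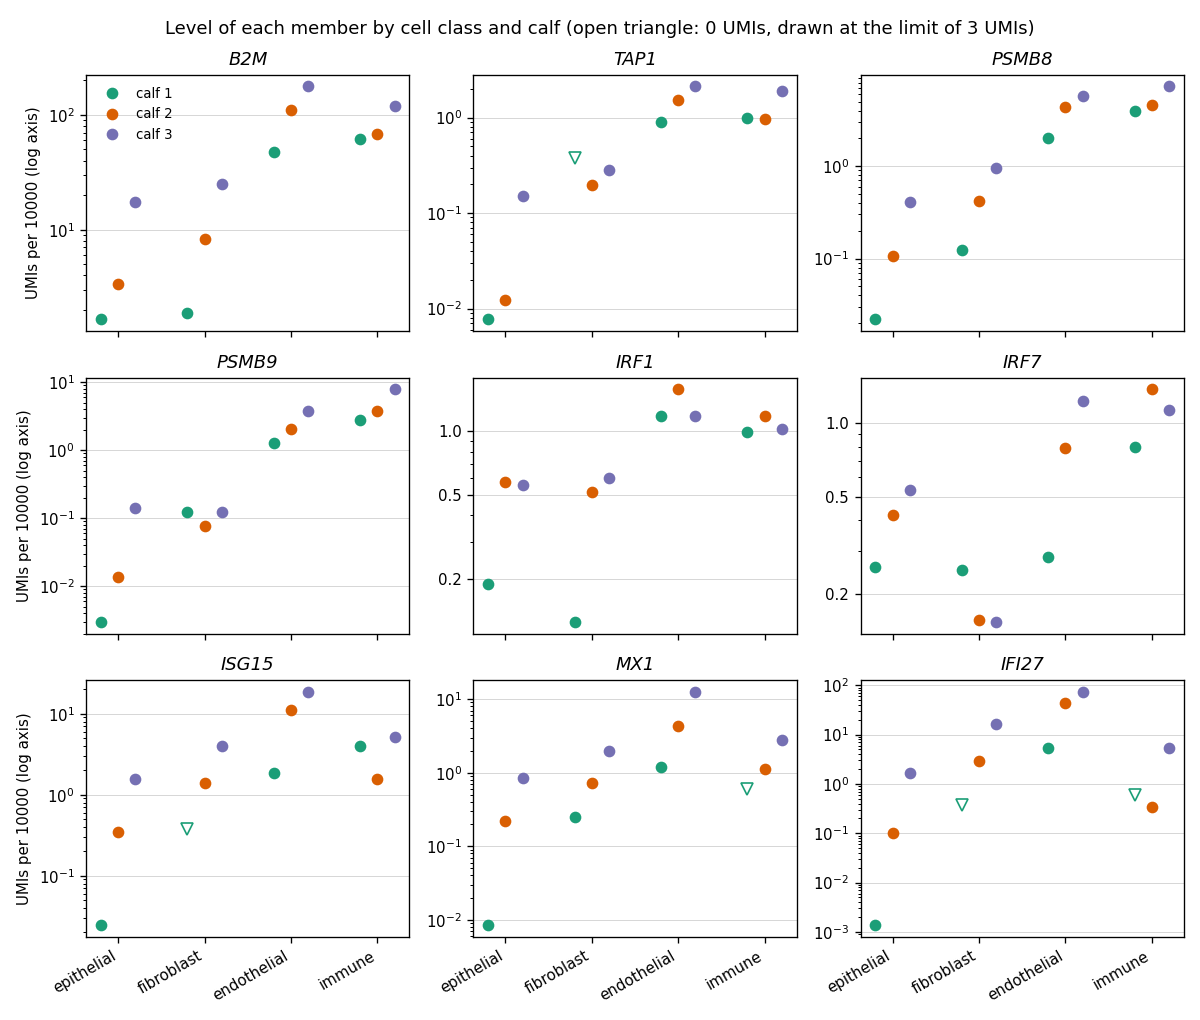
Level of each of the 9 genes (UMIs per 10000, log axes that differ between panels) in the 4 cell classes, with 1 point per calf and open triangles where a calf had 0 UMIs, drawn at the limit of 3 UMIs. In the B2M panel all endothelial and immune points sit above 40 and all epithelial points below 20, while the IRF1 and IRF7 panels span a narrow range.

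TAP1, PSMB8 and PSMB9 had the same broad order. TAP1 was found at 0.903, 1.52 and 2.12 UMIs per 10000 in endothelial cells and at 0.997, 0.959 and 1.91 in immune cells of calves 1, 2 and 3, with overlapping ranges. In epithelial cells TAP1 was found at 0.00770, 0.0122 and 0.151, below every endothelial and immune value. The fibroblasts of calf 1 held 0 TAP1 UMIs, which allows a level of up to 0.374, and those of calves 2 and 3 held 0.195 and 0.285. PSMB8 was found at 3.99, 4.62 and 7.30 in immune cells, at 2.00, 4.37 and 5.70 in endothelial cells, and at 0.0219, 0.107 and 0.413 in epithelial cells. Its order from immune through endothelial and fibroblast to epithelial cells was the same in the 3 calves, although the immune and endothelial ranges overlapped. PSMB9 was found at 2.79, 3.79 and 7.87 in immune cells, at 1.27, 2.02 and 3.73 in endothelial cells, and at 0.00296, 0.0137 and 0.143 in epithelial cells. In fibroblasts the calves lay close together, with 0.125, 0.0779 and 0.122 UMIs per 10000 of PSMB9 from 1, 6 and 12 UMIs.

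The transcription factors differed less between the classes. IRF1, a factor induced by interferon gamma that drives genes of antigen presentation, was found at 1.19, 1.59 and 1.19 UMIs per 10000 in endothelial cells and at 0.997, 1.18 and 1.02 in immune cells. Its epithelial levels were 0.190, 0.574 and 0.556, and its fibroblast levels 0.125 (1 UMI), 0.519 and 0.600. Endothelial and immune values overlapped, epithelial and fibroblast values overlapped, and the first pair lay above the second. IRF7, the factor that amplifies type I interferon production, was found at 0.798, 1.38 and 1.13 in immune cells, 0.282, 0.791 and 1.23 in endothelial cells, and 0.256, 0.418 and 0.532 in epithelial cells. Its fibroblast levels were the lowest of the 4 classes in each calf, at 0.249, 0.156 and 0.153, but that of calf 1 rests on 2 UMIs and lay close to its epithelial level.

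Endothelial cells held the highest levels of the antiviral effectors in calves 2 and 3. ISG15 was found in endothelial cells at 1.86, 11.1 and 18.6 UMIs per 10000, in immune cells at 3.99, 1.55 and 5.13, in epithelial cells at 0.0247, 0.348 and 1.56, and in fibroblasts of calves 2 and 3 at 1.40 and 3.97. The immune value of calf 1 came from 20 UMIs in 10 cells and lay above its endothelial value. MX1 was found at 1.19, 4.26 and 12.5 in endothelial cells, at 1.13 and 2.82 in immune cells of calves 2 and 3, at 0.249 (2 UMIs), 0.727 and 1.96 in fibroblasts, and at 0.00849, 0.218 and 0.842 in epithelial cells. IFI27 had the widest range, from 5.28, 43.9 and 73.2 in endothelial cells to 0.00138, 0.102 and 1.68 in epithelial cells. IFI27 was found at 2.86 and 16.8 in fibroblasts and at 0.344 and 5.35 in immune cells of calves 2 and 3. Calf 1 held 0 UMIs of ISG15 and IFI27 in fibroblasts, which allows up to 0.374 UMIs per 10000, and 0 UMIs of MX1 and IFI27 in immune cells, which allows up to 0.598. Reads that IFI27 shares with its relatives ISG12(B) and IFI27L2, which are listed as genes of their own, could have been divided between them.

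The share of cells with a UMI gives the spread of the response over cells. To compare cells of different depth, each cell was thinned at random to 2000 UMIs and shallower cells were left out, which left 4451, 8586 and 7700 epithelial, 68, 485 and 606 endothelial, 16, 159 and 234 fibroblast and 7, 65 and 627 immune cells. The 95% confidence intervals are exact Clopper-Pearson intervals within 1 calf and cover counting error only. After thinning, B2M had a UMI in 27.0% (25.7 to 28.3), 46.7% (45.7 to 47.8) and 90.8% (90.2 to 91.5) of epithelial cells of calves 1, 2 and 3, against 100%, 99.6% and 100% of endothelial cells and 100% of immune cells of each calf. Without thinning the epithelial shares were 72.8%, 83.4% and 98.7%, with median depths of 10299, 6724 and 7919 UMIs. B2M was therefore near the ceiling in endothelial and immune cells, while its share was lowest in calf 1 and highest in calf 3 both in epithelial cells and in fibroblasts, where it was 43.8%, 76.1% and 93.2%.

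ISG15 had a UMI in 0.315%, 6.06% and 22.5% of thinned epithelial cells, in 8.82%, 71.1% and 89.1% of endothelial cells and in 28.6%, 10.8% and 38.6% of immune cells. MX1 had a UMI in 0.0899%, 4.46% and 15.0% of epithelial cells and in 11.8%, 48.9% and 85.8% of endothelial cells. IFI27 had a UMI in 0.0674%, 1.86% and 18.7% of epithelial cells, in 42.6%, 96.5% and 99.2% of endothelial cells and in 4.62% and 36.7% of immune cells of calves 2 and 3. In calves 2 and 3 the intervals of endothelial and epithelial cells did not overlap for these 3 genes. PSMB8 had a UMI in 0.427%, 2.54% and 7.61% of epithelial cells, PSMB9 in 0.0674%, 0.280% and 2.64%, and TAP1 in 0.0674%, 0.291% and 2.87%. Of the factors, IRF1 had a UMI in 4.07%, 10.5% and 9.69% and IRF7 in 4.52%, 8.06% and 10.5%.

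**Figure D2:**
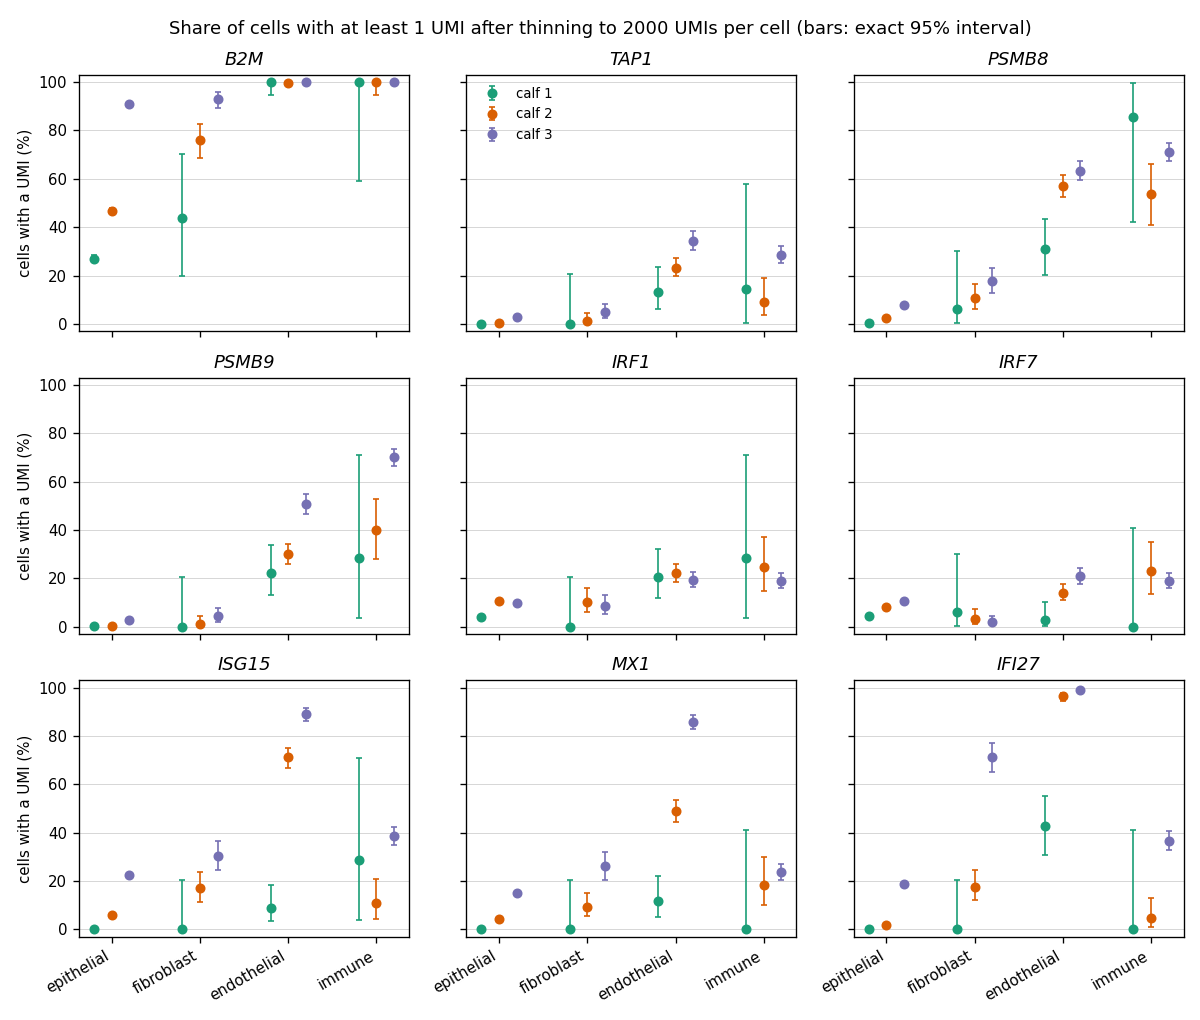
Share of cells (%) with at least 1 UMI of each gene after thinning to 2000 UMIs per cell, by cell class, with 1 point per calf and exact 95% intervals as bars. In epithelial cells the B2M shares are 27.0%, 46.7% and 90.8% in calves 1, 2 and 3, and the wide bars of calf 1 mark its 16 fibroblasts and 7 immune cells.

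Free RNA from broken cells can place UMIs in cells that do not make a gene, and markers of the other classes give its scale. In thinned epithelial cells of calves 1, 2 and 3, COL3A1 had a UMI in 0.225%, 1.02% and 1.03% of cells, PECAM1 in 0.0225%, 0.0699% and 0.0390%, and PTPRC in 0%, 0.0116% and 0.0649%. The epithelial shares of TAP1, PSMB9, MX1 and IFI27 in calf 1 and of TAP1 and PSMB9 in calf 2 were below the COL3A1 share. They are not read as expression on their own. COL3A1 was found at 113, 109 and 119 UMIs per 10000 in fibroblasts of the 3 calves. Its share is therefore not a cutoff for genes at lower levels in their source cells, and a share above it can still come from free RNA. The marker ratios below take the source levels into account. The 9 endothelial markers summed to 0.0740, 0.101 and 0.0845 UMIs per 10000 in epithelial cells of the 3 calves, with ESAM at 0 in calf 1, and the 8 immune markers to 0.341, 0.416 and 0.403, with PTPRC at 0 in calf 1. Both sums were highest in calf 2, but most of the immune sum was RAC2 and ARHGDIB. The other immune markers were highest in calf 3, as 8 of the 9 genes were, with CORO1A at 0.00217, 0.00132 and 0.0103 and LAPTM5 at 0.000789, 0.00206 and 0.00991. The scale of free RNA was computed from PECAM1, CLDN5, EGFL7 and PLVAP for endothelial cells, COL3A1, COL1A1 and COL1A2 for fibroblasts and PTPRC, CORO1A, LAPTM5 and CD53 for immune cells. The last 4 stood in epithelial cells at 0.00984%, 0.0166% and 0.1002% of their level in immune cells of calves 1, 2 and 3. If RNA of the 3 other classes entered epithelial cells in these ratios, it would carry 560% of the IFI27 level of epithelial cells in calf 1, 55.8% in calf 2 and 7.01% in calf 3. For PSMB9 it would carry 72.7%, 23.5% and 9.35%, for TAP1 18.5%, 17.9% and 3.38% and for MX1 20.9%, 2.72% and 2.58%. For PSMB8 it would carry 15.3%, 6.08% and 3.86%, for ISG15 12.7%, 4.30% and 2.15% and for B2M 4.65%, 4.58% and 2.23%. For IRF1 and IRF7 it would carry less than 1% in each calf. In immune cells, with KRT5, KRT15 and PERP used for epithelial cells, RNA of the other classes would carry 143% of the IFI27 level in calf 2 and 36.6% in calf 3. For the other genes it would carry at most 12.9% of the immune level in calves 2 and 3. In fibroblasts of calf 1, RNA of the other classes would carry 52.3% of the B2M, 80.4% of the IRF1 and 52.85% of the IRF7 level. In fibroblasts of calf 2 it would carry 26.2% of the IRF7 level and at most 10.9% of the others. In those of calf 3 it would carry 39.4% of the PSMB9 level, 28.6% of the IRF7 level and at most 8.86% of the others.

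The 4 classes were then compared across the calves by edgeR's quasi-likelihood test on the UMI counts summed per calf and class, with the calf as a block and p-values adjusted by Benjamini-Hochberg over 10203 genes. A gene is called at an adjusted p under 0.05, and all log2 differences are from this fit. The comparisons of a class share its summed counts, so they are not independent of each other. The calves were separate animals, and the numbers of cells behind the sums differ widely.

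In immune against epithelial cells, 9 of the 9 genes were higher in immune cells, where 23.2% of all tested genes were called higher and 24.6% lower. The median log2 difference of the 9 genes was 2.74, against -0.09 for all genes. PSMB9 differed most, by 6.93 ± 0.57 (SE, adjusted p = 1.45e-08), and PSMB8 by 5.02 ± 0.43, TAP1 by 4.62 ± 0.52 and B2M by 3.80 ± 0.40. The effectors were higher by 2.74 ± 0.65 for ISG15, 2.07 ± 0.44 for MX1 and 1.96 ± 0.69 for IFI27 (adjusted p = 0.0257). The marker ratios above would carry 143% and 36.6% of the IFI27 level of immune cells in calves 2 and 3, so the IFI27 call is uncertain. IRF7 was higher by 1.07 ± 0.26 and IRF1 by 0.92 ± 0.28. Without calf 1 the IFI27 call was lost (adjusted p = 0.0551), without calf 2 that of IRF7 (0.0933) and without calf 3 that of IRF1 (0.0536). DESeq2 gave IFI27 an adjusted p of 0.183, and without the calf as a block the calls of IFI27, ISG15, MX1 and IRF1 were lost.

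In endothelial against epithelial cells, 8 of the 9 genes were higher in endothelial cells, where 24.7% of all genes were called higher and 22.3% lower. The median difference was 4.44, against 0.01 for all genes. IFI27 was higher by 8.06 ± 0.82 (adjusted p = 1.56e-07), PSMB9 by 6.0 ± 0.55, TAP1 by 5.17 ± 0.50, PSMB8 by 4.69 ± 0.42, MX1 by 4.44 ± 0.43, ISG15 by 4.35 ± 0.62 and B2M by 4.04 ± 0.41. IRF1 was higher by 1.30 ± 0.26. IRF7 differed by 0.57 ± 0.23 and missed the threshold (adjusted p = 0.0536), but passed it without calf 1 (0.0290).

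Few of the genes passed the test between endothelial and immune cells. In immune against endothelial cells 2 of 9 genes were lower in immune cells, MX1 by -2.37 ± 0.49 (adjusted p = 0.000757) and IFI27 by -6.10 ± 0.89 (adjusted p = 2.12e-05), where 16.2% of all genes were called higher and 17.8% lower. ISG15 differed by -1.61 ± 0.69 and missed the threshold (adjusted p = 0.0838), but without calf 1 it passed, at -2.22 with an adjusted p of 0.000312. The other 6 genes did not pass, with differences from -0.54 ± 0.52 for TAP1 to 0.93 ± 0.51 for PSMB9. Without the calf as a block both calls were lost, with adjusted p = 0.270 for MX1 and 0.0979 for IFI27.

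Fibroblasts split the genes. In fibroblast against epithelial cells 5 of 9 genes were higher in fibroblasts and 1 lower, where 19.3% of all genes were called higher and 18.1% lower. IFI27 was higher by 3.93 ± 0.69 (adjusted p = 0.000156), TAP1 by 1.79 ± 0.64, ISG15 by 1.56 ± 0.60 (adjusted p = 0.0484), PSMB8 by 1.46 ± 0.43 and MX1 by 1.45 ± 0.44. IRF7 was lower by -1.97 ± 0.34 (adjusted p = 0.000119). B2M differed by 0.38 ± 0.37, PSMB9 by 0.76 ± 0.81 and IRF1 by -0.28 ± 0.30, and none of these 3 passed. The TAP1 call was lost without calf 1 (adjusted p = 0.145) and without calf 2 (0.134), and PSMB9 passed without calf 3, at 2.66 (0.0124). DESeq2 gave ISG15 an adjusted p of 0.235, and without the calf as a block 1 of the 9 genes was called, IRF7.

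In immune against fibroblast cells 6 of 9 genes were higher in immune cells, where 17.2% of all genes were called higher and 18.8% lower. PSMB9 was higher by 6.18 ± 0.76, PSMB8 by 3.57 ± 0.48, B2M by 3.42 ± 0.40, IRF7 by 3.04 ± 0.35, TAP1 by 2.84 ± 0.66 and IRF1 by 1.19 ± 0.33. The effectors did not pass, with ISG15 at 1.17 ± 0.71, MX1 at 0.62 ± 0.49 and IFI27 at -1.97 ± 0.77 (adjusted p = 0.0533). MX1 passed without calf 1 (0.0175), ISG15 without calf 2, at 2.26 (0.000784), and IFI27 without calf 3, at -2.94 (0.00180). Without the calf as a block the IRF1 call was lost (0.0594). In endothelial against fibroblast cells 9 of 9 genes were higher in endothelial cells, where 13.4% of all genes were called higher and 13.4% lower. The differences ran from 1.58 ± 0.32 for IRF1 to 5.25 ± 0.75 for PSMB9, with 4.13 ± 0.76 for IFI27 and 3.66 ± 0.40 for B2M. Without the calf as a block the calls of MX1, ISG15 and IFI27 were lost in this comparison.

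**Figure D3:**
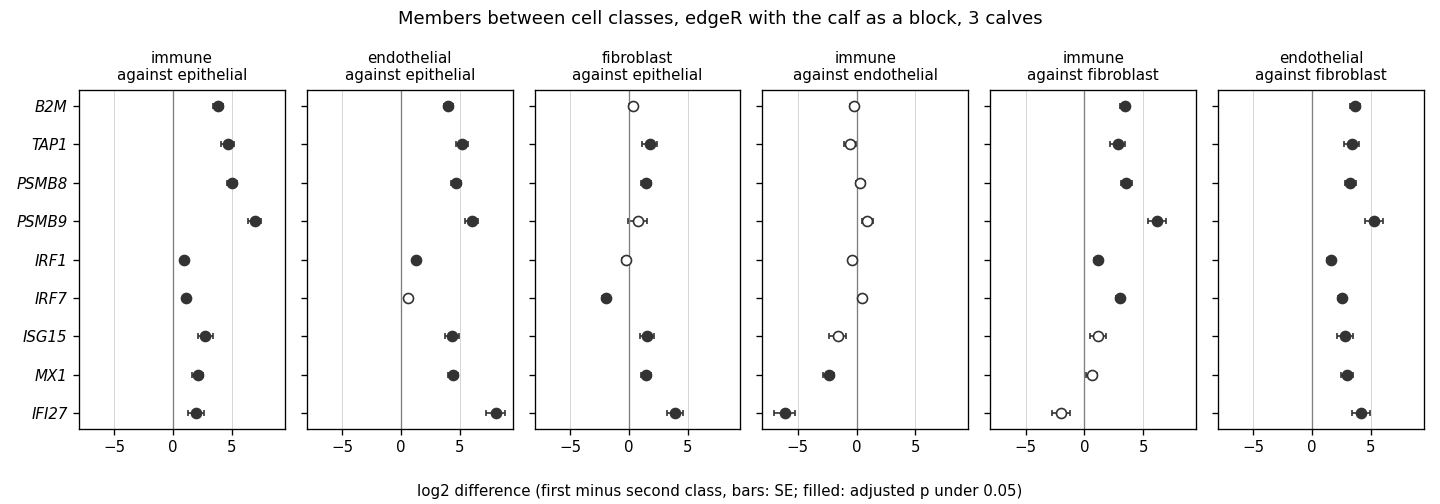
Log2 difference of each of the 9 genes in the 6 comparisons of cell classes, as first minus second class, with SE bars and filled points for an adjusted p under 0.05 by edgeR with the calf as a block (3 calves). The immune against endothelial panel has 2 filled points, MX1 and IFI27, and the endothelial against fibroblast panel has 9.

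The rest of the pathway was followed through a list of 97 genes, of which 86 were in the matrices and 68 passed the filter on low counts. Of these 68, 54 were higher and 2 lower in immune than in epithelial cells, where 23.2% and 24.6% of all genes were. Between endothelial and epithelial cells 55 were higher and 1 lower in endothelial cells, where 24.7% and 22.3% of all genes were. Between fibroblast and epithelial cells 17 were higher and 4 lower in fibroblasts, where 19.3% and 18.1% of all genes were. The share that was higher was near that of all genes, and the share that was lower was below it. Against endothelial cells 7 were higher and 20 lower in immune cells, where 16.2% and 17.8% of all genes were. Against fibroblasts 37 were higher and 3 lower in immune cells, where 17.2% and 18.8% were, and 45 higher and 1 lower in endothelial cells, where 13.4% and 13.4% were. Their median log2 differences were 1.92, 2.17, 0.39, -0.42, 1.27 and 1.94 in these 6 comparisons, in this order, against medians of all genes between -0.09 and 0.05.

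The interferon ligands that could be looked up were hardly detected. Of the 7 listed, IFNB1, IFNAD and IFNW1 were not in the matrices under these symbols, so their RNA was not measured here. IFNG, the gene of interferon gamma, was found at 0.0246 and 0.217 UMIs per 10000 in immune cells of calves 2 and 3 and had 0 UMIs in the other classes. IFNK, IFNE and IFNL3 had mean levels of 0.00339 or less in every class, and none of the 4 ligands in the matrices passed the filter.

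The receptors were highest in endothelial cells or in immune cells. IFNGR1, the ligand-binding chain of the interferon gamma receptor, averaged 4.76 UMIs per 10000 in endothelial, 1.60 in immune, 0.532 in fibroblast and 0.234 in epithelial cells, and its endothelial against epithelial difference was 3.88 ± 0.24. IFNAR1 and IFNAR2, the chains of the type I receptor, averaged 0.573 and 0.723 in endothelial cells and 0.0764 and 0.0761 in epithelial cells. IL10RB, which pairs with IFNLR1 in the receptor of type III interferons, averaged 0.695 in endothelial and 0.233 in epithelial cells. IFNGR2 averaged 0.165 and IFNLR1 0.0110 in immune cells, where each was highest. The kinase JAK1 averaged 0.844 in epithelial cells and 2.26 to 2.51 in the other classes, while JAK2 averaged 0.475 and TYK2 0.423 in immune cells. Of the 8 receptor and kinase genes tested, 8 were higher in immune and 6 in endothelial than in epithelial cells, where 23.2% and 24.7% of all genes were.

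Of the transcription factors, IRF9 averaged 1.36 UMIs per 10000 in endothelial and 0.213 in epithelial cells, IRF2 1.22 in endothelial and 0.322 in epithelial cells, and IRF3 1.07 in endothelial and 0.614 in epithelial cells. IRF8, a factor of dendritic cells and macrophages, averaged 0.520 in immune cells and at most 0.0230 elsewhere. IRF9, part of the complex that binds interferon-driven promoters, was found at 0.0416, 0.243 and 0.355 in epithelial cells of calves 1, 2 and 3. It was highest in calf 3, as was USP18, an inhibitor that removes ISG15 from proteins. In calves 1, 2 and 3 USP18 was found at 0.0604, 0.0887 and 0.280 in epithelial and at 0.367, 0.600 and 1.04 in endothelial cells. The RNA sensors DDX58 and IFIH1 averaged 0.577 and 0.843 in endothelial cells and 0.121 and 0.0622 in epithelial cells, and STING1, the adaptor of DNA sensing, was highest in immune cells, at 0.651.

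Of the other MHC class I genes, the heavy chains moved most. BOLA, a bovine class I heavy chain gene, was found at 26.4, 36.3 and 127 UMIs per 10000 in endothelial cells, at 28.7, 17.7 and 77.4 in immune cells, and at 0.119, 0.277 and 8.40 in epithelial cells. Its endothelial against epithelial difference was 5.66 ± 0.66 and its immune against epithelial difference 5.13 ± 0.65. BOLA-NC1, a nonclassical heavy chain, averaged 2.05 in endothelial, 1.60 in immune, 0.188 in fibroblast and 0.0823 in epithelial cells. Class I heavy chain genes are close copies that differ between animals, so reads could have been divided among them or lost, and differently in each calf. PSMB10, the third catalytic subunit of the immunoproteasome, averaged 2.18 in endothelial and 0.202 in epithelial cells, TAP2, the partner of TAP1, 0.875 and 0.263, and the peptide-loading factor TAPBP 1.88 and 0.548. The chaperones CALR, PDIA3 and CANX, which serve many proteins beside MHC class I, averaged 3.95, 1.45 and 1.37 in epithelial cells and 7.06, 3.21 and 1.59 in endothelial cells, and the proteasome activators PSME1 and PSME2 1.58 and 0.777 against 2.68 and 1.88. Of the 13 genes of this role that were tested, 9 were higher in immune and 9 in endothelial than in epithelial cells, where 23.2% and 24.7% of all genes were. Between immune and endothelial cells 1 differed and was lower in immune cells, where 17.8% of all genes were.

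Among 33 other targets of interferon tested, 28 were higher and 1 lower in immune than in epithelial cells, where 23.2% and 24.6% of all genes were. In endothelial against epithelial cells 30 were higher and 1 lower in endothelial cells, where 24.7% and 22.3% of all genes were. Against endothelial cells, 4 were higher and 13 lower in immune cells, where 16.2% and 17.8% of all genes were. IFI6, a relative of IFI27, was found at 0.903, 20.6 and 31.1 UMIs per 10000 in endothelial cells and at 0.624, 22.7 and 30.1 in fibroblasts of calves 1, 2 and 3. RSAD2, which makes an antiviral nucleotide, averaged 2.33 in endothelial and 0.0168 in epithelial cells, with a difference of 7.21 ± 0.36. OAS1Y, a sensor of double-stranded RNA, averaged 4.87 in endothelial and 0.628 in epithelial cells. Endothelial cells also had the highest means of MX2 (1.04), IFIT1 (0.760), IFIT5 (1.42), IFI44L (0.609), EIF2AK2 (0.653), XAF1 (1.36), PARP9 (0.814), DTX3L (0.626), PARP14 (0.846), IFITM1 (1.04) and IFITM3 (1.54, from 1 of its 2 rows). Targets highest in immune cells were SAMD9 (1.24), TRIM25 (0.744), LGALS3BP (0.719), SAMHD1 (0.748), LY6E (2.02), WARS1 (4.49) and CXCL9 (1.22), while IFITM5 was highest in fibroblasts (2.08).

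Several of the immune values rest on 1 calf. WARS1 was found at 10.4, 2.26 and 0.842 UMIs per 10000 in immune cells of calves 1, 2 and 3, and CXCL9 at 0, 3.62 and 0.0550. LY6E, at 0, 1.25 and 4.81 in immune cells, was lower in endothelial than in epithelial cells, by -3.50 ± 0.51, and lower in fibroblasts than in epithelial cells, by -3.53 ± 0.65. The genes lower in immune than in epithelial cells were SOCS3, an inhibitor of JAK kinases, by -2.56, and IFITM3, an inhibitor of virus entry, by -1.04.

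The calves differed from each other in the same genes. With 1 library per calf, differences between calves have no replicate check and are given as folds with no test, for genes with at least 50 UMIs in the pair of calves. The limit of 2-fold for counting was chosen after the values had been seen. In epithelial cells 9 of 9 genes were at least 2-fold higher in calf 3 than in calf 1, where 8.12% of all genes were, and the median fold was 19.6 against 1.09 for all genes. The folds were 10.5 for B2M, 19.6 for TAP1, 18.9 for PSMB8, 48.2 for PSMB9, 63.3 for ISG15 and 99.2 for MX1, and 2.93 for IRF1 and 2.08 for IRF7. The calf 1 levels of TAP1, PSMB9 and MX1 rest on 39, 15 and 43 UMIs, of which the marker ratios above would carry 18.5%, 72.7% and 20.9%, so these folds, and the median, which is the fold of TAP1, are uncertain. IFI27 had 7 UMIs in calf 1 and 11688 in calf 3, and no fold is given for it because those ratios would carry more than its calf 1 level. Of the 68 pathway genes with enough UMIs, 36 were past the limit.

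Between calves 3 and 2, 7 of 9 genes were at least 2-fold higher in epithelial cells of calf 3, where 14.6% of all genes were. The folds were 5.15 for B2M, 12.4 for TAP1, 3.87 for PSMB8, 10.5 for PSMB9, 4.48 for ISG15, 3.86 for MX1 and 16.5 for IFI27, and 0.968 for IRF1 and 1.27 for IRF7. The marker ratios above would carry 55.8%, 23.5% and 17.9% of the calf 2 levels of IFI27, PSMB9 and TAP1, so the folds of these genes are uncertain. The factors thus differed less between these calves than the presentation and effector genes. BOLA was 70.6-fold higher in epithelial cells of calf 3 than of calf 1. The part of its low calf 1 level that free RNA would carry was not computed. Reads of class I heavy chain genes could also be lost differently in each calf, so this fold is uncertain. The share of cells with at least 5 UMIs of B2M was 8.56%, 16.4% and 87.6% in epithelial cells of calves 1, 2 and 3. The high B2M level of calf 3 was thus found in most of its epithelial cells. IFI27 differed in this, with at least 5 UMIs in 0%, 0.182% and 11.7% of epithelial cells.

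In endothelial cells 8 of 9 genes were at least 2-fold higher in calf 3 than in calf 1, where 14.3% of all genes were, and IRF1 was level, at 1.00-fold. IFI27 was 13.9-fold, MX1 10.6-fold and ISG15 9.98-fold higher. Between calves 3 and 2, 1 of 9 endothelial genes was past the limit, MX1 at 2.94-fold, where 7.82% of all genes were, and the median fold was 1.61 against 1.11 for all genes. In fibroblasts 5 of the 6 genes with enough UMIs were past the limit in calf 3 against calf 2, where 8.14% of all genes were, with IFI27 at 5.87-fold and B2M at 2.97-fold. In immune cells 4 of 9 were past it, PSMB9, ISG15, MX1 and IFI27, where 13.9% of all genes were. IFI27 had 14 UMIs in immune cells of calf 2 and 1943 in calf 3, and no fold is given for it there. The marker ratios above would carry 143% of its calf 2 level and 36.6% of its calf 3 level, so its place among the 4 is uncertain. Calf 3 was also the calf with the most immune cells, 7.30% of its cells against 0.770% in calf 2 and 0.213% in calf 1, and the part of this or of any other feature of the animal in the levels was not tested.

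The epithelium was not uniform in these genes. Clusters made within the non-immune cells gave 10 epithelial groups, each with cells of the 3 calves. Calf 3 had the highest level in 10 of 10 groups for B2M, TAP1, PSMB8, PSMB9, IRF7, MX1 and IFI27, in 9 of 10 for ISG15 and in 6 of 10 for IRF1. Calf 1 had the lowest level in 10 of 10 for B2M, ISG15, MX1 and IFI27. B2M was found at 1.34, 2.97 and 11.8 UMIs per 10000 in the spinous-like group led by SPINK5 and KRTDAP, and at 2.32, 4.28 and 17.7 in the group led by CXCL2 and GRO1. The highest and lowest groups of B2M were not the same in the 3 calves, and it differed less between groups of a calf than between calves. IFI27 was highest in calves 2 and 3 in the group led by RGS4 and PLAC8, at 0.265 and 4.43, with the CXCL2 and GRO1 group second, at 0.139 and 3.35. In the spinous-like group IFI27 was found at 0, 0.0576 and 0.211.

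IRF1 separated the groups more than the calves, and the same group was highest and the same group lowest in the 3 calves. It was found at 1.27, 1.88 and 1.95 UMIs per 10000 in the CXCL2 and GRO1 group, whose other leading genes were ATF3, IER3 and EGR1, and IRF1 itself was among them, so its level there is partly what describes the group. In the spinous-like group it was found at 0.0257, 0.0576 and 0.0864, and in the mitotic-like group led by CENPF and TOP2A at 0.119, 0.118 and 0.103. ISG15 was found at 0.0882, 0.553 and 3.48 in the CXCL2 and GRO1 group, which was highest in calves 2 and 3, and at 0.00470, 0.0337 and 0.293 in the mitotic-like group, which was lowest in those calves. In calf 1 the spinous-like group was highest for ISG15, at 0.124.

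**Figure D4:**
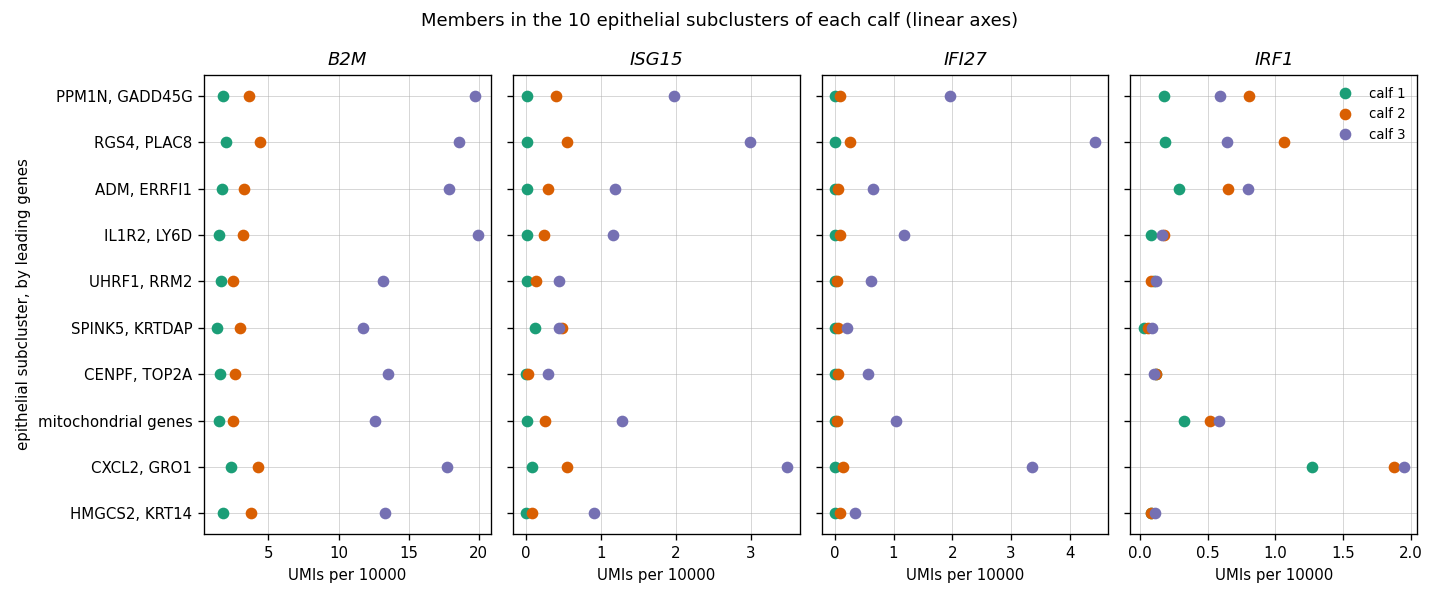
Levels of B2M, ISG15, IFI27 and IRF1 (UMIs per 10000, linear axes) in the 10 epithelial groups, named by leading genes, with 1 point per calf. Calf 3 lies apart to the right for B2M in every group, while for IRF1 the CXCL2 and GRO1 group lies to the right in all 3 calves, at 1.27, 1.88 and 1.95.

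Within single epithelial cells the effectors were found together more often than their shares alone would give. In thinned cells of calf 3, 438 held both ISG15 and MX1, where the product of the shares gives 259 cells, a ratio of 1.69. ISG15 and IFI27 were found together in 480 cells against 323, a ratio of 1.49, and MX1 and IFI27 in 294 against 215, a ratio of 1.37. In calf 2 the ratio for ISG15 and MX1 was 2.33, from 54 cells against 23.2. IRF7 and IFI27 were found together in 135 cells of calf 3 against 150, a ratio of 0.899. In calf 2 they were found together in 13 cells against 12.9, a ratio of 1.01. Cells of 1 library are not replicates and the groups above differ in these genes, so the ratios are a description.

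Endothelial cells formed 2 groups, of 916 cells led by PLVAP and of 344 cells led by CLDN5. IFI27, which is among the leading genes of the PLVAP group, was found there at 6.21, 48.4 and 83.3 UMIs per 10000 in calves 1, 2 and 3 and in the CLDN5 group at 1.21, 23.6 and 51.9. The order was the opposite for B2M, at 42.6, 99.9 and 157 in the PLVAP group and 71.2, 156 and 219 in the CLDN5 group. ISG15, TAP1, PSMB8 and PSMB9 were also higher in the CLDN5 group of each calf, ISG15 with 0.868, 9.77 and 17.3 against 6.20, 17.1 and 21.3. The CLDN5 group held 15 cells of calf 1, so its values there rest on few cells. A single endothelial cell of calf 1 held 28 of the 66 ISG15 UMIs of that class.

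In calves 2 and 3 IFI27 and ISG15 were highest, among the fibroblast groups, in the ACTA2-led group of mural and smooth muscle cells. IFI27 was found there at 4.42 and 23.6 UMIs per 10000, in the LUM-led group at 0.281 and 7.20 and in the COL1A2-led group at 4.21 and 13.4. ISG15 was found at 2.16 and 6.05, 0.246 and 1.53, and 1.86 and 2.18 in the same groups. MX1 and B2M had another order and were highest in the LUM-led group. MX1 was found at 0.525 and 2.02 in the ACTA2-led, 1.02 and 2.17 in the LUM-led and 0.648 and 1.45 in the COL1A2-led group. B2M was found at 7.52 and 26.1 in the ACTA2-led, 9.47 and 30.2 in the LUM-led and 8.26 and 12.5 in the COL1A2-led group.

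Immune cells came mostly from calf 3, and their 6 groups are given as levels of the pooled cells, with the highest groups named below the same in calf 3 alone. The largest, of 349 cells led by C1QA and CSF1R, held 112 UMIs per 10000 of B2M, 3.82 of MX1 and 6.24 of IFI27. A finer clustering gave in its place 245 cells led by FCER1A, whose best-matching markers were those of dendritic cells, with 3.09 of MX1 and 5.28 of IFI27, and 104 cells led by FCN1 and C1QC with 6.14 and 9.24. The 268 T-like cells held 113 of B2M but 0.236 of MX1 and 1.47 of IFI27. In calf 3 alone MX1 was found at 4.15 in the C1QA and CSF1R group and at 0.262 in T-like cells. The 63 plasmacytoid dendritic-like cells held 0.251 of MX1 and 1.10 of IRF7, the factor such cells are known for, where the C1QA and CSF1R group held 1.41. In the finer clustering 33 cells led by WFDC2 and GCM2 held 0.629 of IRF7, and 31 led by FCRLA and JCHAIN held 1.74. The group of 60 cells led by DNASE1L3 and BATF3, markers of cross-presenting dendritic cells, had the highest level of PSMB9, at 14.7, and of TAP1, at 2.71, while PSMB8 was found at 10.2. The 23 T-like cells led by TNFRSF4 and CTLA4 had the highest levels of B2M (233), ISG15 (17.0), PSMB8 (11.6) and IRF1 (3.20), from 1382, 101, 69 and 19 UMIs. The last 23 cells, led by KRT15 and COL17A1, carried epithelial markers and had the lowest B2M level, 44.1, and without them the 6 comparisons of classes kept the calls of the 9 genes except that IFI27 passed in immune against fibroblast cells (adjusted p = 0.0494).

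**Figure D5:**
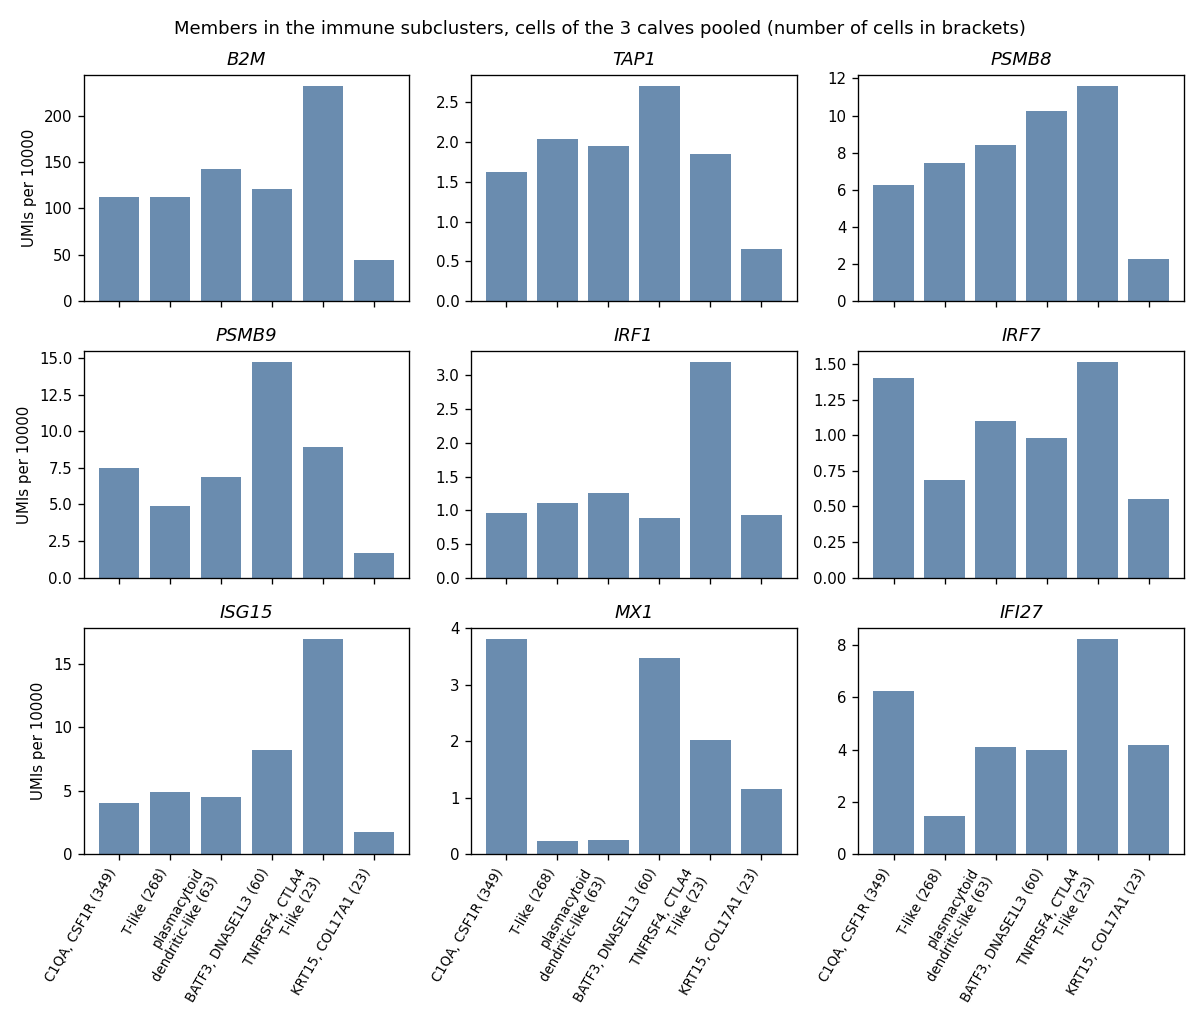
Levels of the 9 genes (UMIs per 10000, bars from 0, axes that differ between panels) in the 6 groups of immune cells, cells of the 3 calves pooled, with the number of cells in brackets. MX1 is 3.82 in the C1QA and CSF1R group and 0.236 in T-like cells, PSMB9 is highest in the BATF3 and DNASE1L3 group, and the groups of 23 cells rest on few UMIs.

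The genes most like each of the 9 were found by Pearson's r of log2(CPM + 1) over the 12 summed profiles of 4 classes and 3 calves, which share libraries, so r is a description. B2M was most like ENSBTAG00000048782 (0.993), BOLA-NC1 (0.987) and TAP1 (0.983), and TAP1 most like B2M, BOLA-NC1 (0.982) and ENSBTAG00000011511 (0.979). PSMB8 was most like ENSBTAG00000048782 (0.986), EPSTI1 (0.979) and B2M (0.975), and PSMB9 most like PSMB8 (0.960), CYSTM1 (0.951) and EPSTI1 (0.947). ISG15 was most like ENSBTAG00000022489 (0.973), IFIH1 (0.970) and PARP9 (0.967), IFI27 most like UBA7 (0.952) and ENSBTAG00000053806 (0.927), and MX1 most like SYF2 (0.95), SLC38A2 (0.945) and JTB (0.922). IRF1 was most like BoLA (0.942), RGCC (0.941) and PARP9 (0.938), and IRF7 most like SAMD9 (0.930), PTAFR (0.902) and DUSP5 (0.900). IRF7 had the lowest first correlation of the 9.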

How the data were processed

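Single-cell RNA-seq was measured in 1 library from each of 3 newborn calves (Chromium Single Cell 3′ v3). The authors deposited raw UMI counts per gene and barcode, made with Cell Ranger 3.1.0 on the ARS-UCD1.2 genome, without normalization. From these counts, barcodes with 500 to 4000 genes, at most 50000 UMIs and at most 40% UMIs of 13 mitochondrial genes were kept. Doublets were removed by a score against simulated doublets (191, 908 and 879 barcodes), in place of the study's tool. The 2000 most variable genes, without the 9 genes and the pathway list, were reduced to 30 dimensions, merged over calves by an implementation of Harmony and clustered (scanpy 1.11.5, leidenalg 0.10.2) at a resolution of 0.1. Immune and other cells were clustered again with 50 dimensions at 0.2 and 0.8. Clusters were named from marker lists.

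UMI counts were summed per calf and class (12 profiles) and tested with edgeR 4.0.16 (TMM, filterByExpr, quasi-likelihood, the calf as a block, since each calf gave all 4 classes) in R 4.3.3. DESeq2 1.42.0, other filters, classes, thinning depths and left-out calves were tried. On simulated data for immune against epithelial cells (9729 genes) the test recovered 34% of genes changed 2-fold upward and 100% of those changed 4-fold. The simulated counts had 1 fixed spread and no differences between calves, and the changed genes were drawn from those above the median level. The recovery of genes that vary between calves as the 9 genes do was therefore not measured. Named genes were the 9 genes, pathway genes with a mean of at least 0.5 UMIs per 10000 in a class, ligands and receptors, the 3 genes most like each of the 9, and pathway genes called in the direction few took, which were chosen after their values were seen. The 9 genes, the pathway list and the markers were chosen with earlier results of these data known. Sequences were not used here, and a few genes that this rule names are not reported here.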

Additional observations from a re-analysis of the deposited data

Results flagged for a closer look

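Barcodes with over 4000 detected genes were outside the range used for the comparisons, and 4 levels there were at least 2-fold above the epithelial level of the same calf with at least 50 UMIs. TAP1 in calf 1 was found at 0.0215 UMIs per 10000, from 55 UMIs, against 0.00770 in epithelial cells. PSMB9 in calf 2 was found at 0.0844, from 51 UMIs, against 0.0137, and IFI27 in calf 2 at 1.50, from 905 UMIs, against 0.102. PSMB9 in calf 3 was found at 0.352, from 645 UMIs, against 0.143. The 9 endothelial markers summed to 0.187, 3.03 and 2.26 UMIs per 10000 in these barcodes of calves 1, 2 and 3, against 0.0740, 0.101 and 0.0845 in epithelial cells, and the 8 immune markers to 0.404, 0.420 and 0.741 against 0.341, 0.416 and 0.403. The part of these markers' cells in the 4 levels was not tested.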

How the results depend on the processing

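Of 756 log2 differences of the 9 genes under other settings, 696 kept their direction and their side of the threshold, 37 lost and 18 gained a call, and 5 changed sign, all under a gate that took single cells by their markers and left few cells of the small classes. Those were TAP1 at -0.34, PSMB9 at -0.62 and ISG15 at -0.26 in fibroblast against epithelial cells, and PSMB8 at -0.39 and IRF1 at 1.33 in immune against endothelial cells. Levels moved by less than the SD in 333 of 333 cases, shares in 398 of 441, and the highest levels over subclusters in 22 of 36. The level and share counts each include 36 cases per left-out calf. Leaving out 1 of 3 calves cannot move a mean by its SD, so those cases test nothing. The SD over calves was also wide, as for IFI27 in epithelial cells (mean 0.594, SD 0.941). The level and share counts are therefore a weak check.

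Without the calf as a block (no pairing by replicate), 5 of 9 genes were called in immune against epithelial cells, 1 in fibroblast against epithelial cells and, by edgeR, 0 in immune against endothelial cells, where 1 had an unadjusted p under 0.05 and DESeq2 with the block called 2. Without the filter on low counts, 4 were called in immune against endothelial cells. Under the marker gate 1 was called in fibroblast against epithelial cells, and 3 were past 2-fold in endothelial cells of calf 3 against calf 2. Genes called under the gate, of 3464 tested, numbered 784 in immune and 1116 in endothelial against epithelial, 1139 in fibroblast against epithelial, 481 in immune against endothelial, 622 in immune against fibroblast and 510 in endothelial against fibroblast cells, from 4878, 4797, 3817, 3474, 3676 and 2726 in the reported fit. With 1 calf left out the ranges were 2210 to 5244, 2768 to 4894, 2003 to 4110, 1716 to 3765, 1777 to 4109 and 1498 to 2860, lowest without calf 3.

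DESeq2's size factors moved the median of all genes in immune against fibroblast cells from -0.04 to -0.17. The 10 immune cells and 22 fibroblasts of calf 1 limit every value of those classes there.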
